A study of Rattus norvegicus with 22 samples.

Results

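The genes described here are those of the insulin and insulin-like growth factor (IGF) axis and its Foxo factors: the insulin receptor Insr, its docking proteins Irs1 and Irs2, the growth factor Igf1 and its receptor Igf1r, the binding proteins Igfbp1, Igfbp2 and Igfbp3, and the transcription factors Foxo1 and Foxo3. A probe was taken when its gene name on the array matched one of these 10 symbols. This gave 13 probes of the 30367 on the array, for 9 of the 10 genes, while the array carried 26276 gene names in all. Insr, Irs1, Igf1 and Igfbp2 had 2 probes each, the other 5 genes had 1 probe each, and Foxo1 is not analysed here because no probe bore its name.

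Liver RNA of 22 male Sprague–Dawley rats, which the methods give as 8 weeks old at the start, was measured on Agilent two-colour rat arrays with 1 array per rat. Each array set the rat against a common reference, RNA from the livers of healthy 10-week-old rats that were kept outside the experiment. All rats received a semi-synthetic diet, either the control diet (CD) or BASE-diet (BD). By the text of the methods, 6% of salmon fat took the place of lard in BASE-diet. It also held 8% of linden flower extract, 8% of pumpkin puree and 1% of 2 probiotic strains. The diet table of the methods gives less probiotic than this, and more rapeseed oil in BASE-diet than in the control diet. The groups were CD 3 and BD 3 after 3 months (5 rats each) and CD 14 and BD 14 after 14 months (6 rats each), so that a longer feeding also means an older rat, and the 2 cannot be told apart. By the labels, every rat was labelled with Cy5 and the reference with Cy3. The methods instead assign Cy3 to control rats and Cy5 to rats fed with BASE-diet, and the labels were followed here. As all rats carried the same dye, a level above or below the reference cannot be told apart from a dye effect on that probe. Every value below is a log2 ratio of rat to reference, in which 0 is the level of the reference, unless it is called a Cy5 signal or a difference between groups.

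Insulin binds its receptor on the hepatocyte, the receptor phosphorylates the docking proteins, and PI3-kinase and Akt carry the signal onward. Akt phosphorylates the Foxo factors, which leave the nucleus, so that Foxo target genes such as Igfbp1 and the enzymes of gluconeogenesis are high in fasting and low after a meal. The liver is the main source of circulating Igf1, which is made under growth hormone and carried in the blood by the binding proteins.

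The RNA came from whole liver, in which fewer cells of a type and less RNA per cell cannot be told apart. All 7 hepatocyte markers examined were well above background on the 22 arrays. The mean of the 6 Kupffer cell markers lay between -2.95 and -0.19 and that of the 7 stellate cell and fibroblast markers between -1.81 and -0.24, below the reference in every rat. Between 52.4% and 93.6% of spots were well above background in Cy5. The lowest of these was CD 3 replicate 4, which also held the lowest value of the 22 arrays at 25.3% of the tested probes. CD 3 replicate 1 and CD 14 replicate 1 had over 1% of their spots flagged as non-uniform, and all other arrays less. The 5 slides, each scanned on 1 day, were not balanced over the groups. All 6 BD 14 rats lay on 1 slide together with 2 CD 14 rats, whereas CD 3 and CD 14 were spread over 3 slides each and BD 3 over 2.

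The window before the start of Igfbp1 is printed because this gene showed the widest single excursion among the genes described, and because its insulin response element, which Foxo factors bind, is known. It lies at chr14:86261027-86261276 on the forward strand of build GRCr8 in RefSeq, 250 bases that end just before the start site. The windows of Igf1 (chr7:24172282-24172531, forward strand) and Insr (chr12:6128804-6129053, reverse strand) are shown beside it, since both also held a motif. Capitals mark the motifs searched, each of 7 bases and on both strands: CAAAACA and TATTTTG, the 2 parts of the Igfbp1 element, and GTAAACA, the core of a general Foxo site (TGTTTAC when read on the other strand).
Igfbp1: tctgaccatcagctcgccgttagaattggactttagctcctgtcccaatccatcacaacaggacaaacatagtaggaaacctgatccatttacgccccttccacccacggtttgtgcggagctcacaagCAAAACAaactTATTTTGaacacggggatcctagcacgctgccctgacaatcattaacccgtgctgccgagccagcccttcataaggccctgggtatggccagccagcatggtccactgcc
Igf1: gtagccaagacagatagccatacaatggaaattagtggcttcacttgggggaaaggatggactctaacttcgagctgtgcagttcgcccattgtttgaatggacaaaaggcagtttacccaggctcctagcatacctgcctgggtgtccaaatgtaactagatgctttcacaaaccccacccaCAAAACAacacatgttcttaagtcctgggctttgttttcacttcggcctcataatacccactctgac
Insr: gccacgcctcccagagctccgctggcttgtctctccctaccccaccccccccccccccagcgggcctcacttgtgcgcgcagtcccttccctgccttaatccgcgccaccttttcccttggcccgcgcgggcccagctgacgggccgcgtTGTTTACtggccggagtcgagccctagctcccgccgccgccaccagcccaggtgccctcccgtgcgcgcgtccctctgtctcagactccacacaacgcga

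Counted from the start site, CAAAACA of Igfbp1 spans positions -121 to -115 and TATTTTG positions -110 to -104, without overlap. The match of Igf1 spans -67 to -61 and that of Insr -100 to -94. Of 33469 rat promoter windows of this length, 5.46% held CAAAACA, 4.46% TATTTTG and 3.21% GTAAACA, while 0.373% held the first 2 together. The table held windows for 8 of the 10 genes, and those of Irs1, Igf1r, Igfbp2, Igfbp3 and Foxo1 had no match. Matched letters are a description and were not tested for binding.

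The probes are 60 bases long. Those shown are 1 each of Insr, Irs1 and Igf1, and those of the 2 genes with the widest diet differences within a time. The Insr and Igf1 probes hold no stop codon in at least 1 frame, and the Irs1 probe ends in a stop codon (capitals). The Igfbp1 probe also has a frame without a stop codon, and such a frame does not show that the stretch is coding. Of Foxo3 and Igfbp1 only the first 30 bases are given.
Insr (A_64_P085396, chr12:3086616-3086675): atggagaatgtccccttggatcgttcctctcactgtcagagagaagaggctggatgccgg
Irs1 (A_64_P149129, chr9:81633784-81633843): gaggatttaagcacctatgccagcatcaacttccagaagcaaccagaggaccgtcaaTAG
Igf1 (A_64_P052740, chr7:24587916-24587975): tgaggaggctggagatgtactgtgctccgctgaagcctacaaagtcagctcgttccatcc
Foxo3 (A_64_P085072, chr20:46171789-46171848): ttaaaaagcagaaggaaggtgttgtgtcag
Igfbp1 (A_44_P422836, chr14:87954736-87954795): ctgccaccagtattttaatgtgcaaaactg

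These positions are those the array files give, on build rn4. The Igfbp1 probe lies 4448 bases from that of Igfbp3 (chr14:87959244-87959303), as the 2 genes are neighbours. The second probe of Irs1 (A_44_P431109, chr9:81585685-81585744) lies 48039 bases from the first, that of Igf1 (A_44_P366723, chr7:24604715-24604774) 16739 bases and that of Insr (A_64_P118402, chr12:3087540-3087599) 864 bases away. The Igfbp2 probes (A_64_P032415 at chr9:71993843-71993902 and A_64_P039026 at chr9:71994131-71994190) are 228 bases apart. Irs2 was measured at chr16:83403814-83403873 and Igf1r at chr1:122989150-122989209.

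No gene of the insulin, IGF and Foxo set passed limma's adjusted threshold of 0.05 in any comparison of diet or time. Igf1 and Igfbp3 were below the reference in all 22 rats and varied little from rat to rat, whereas Igfbp1, Igfbp2 and Irs2 varied more between rats of the same group than nearly all other genes tested. Of the 8 genes tested, Foxo3 alone had an unadjusted p under 0.05 in the fit of the 4 group means to all rats, while other settings also put Insr, Irs1, Igf1 or Igfbp2 under it in at least 1 comparison. This was 1 of 12 probes in BD 3 against CD 3, near the 7.11% of all tested probes, and it was not called after adjustment. A single rat of BD 14 had Igfbp1 and Irs2 far above the rest of its group.

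**Figure D1:**
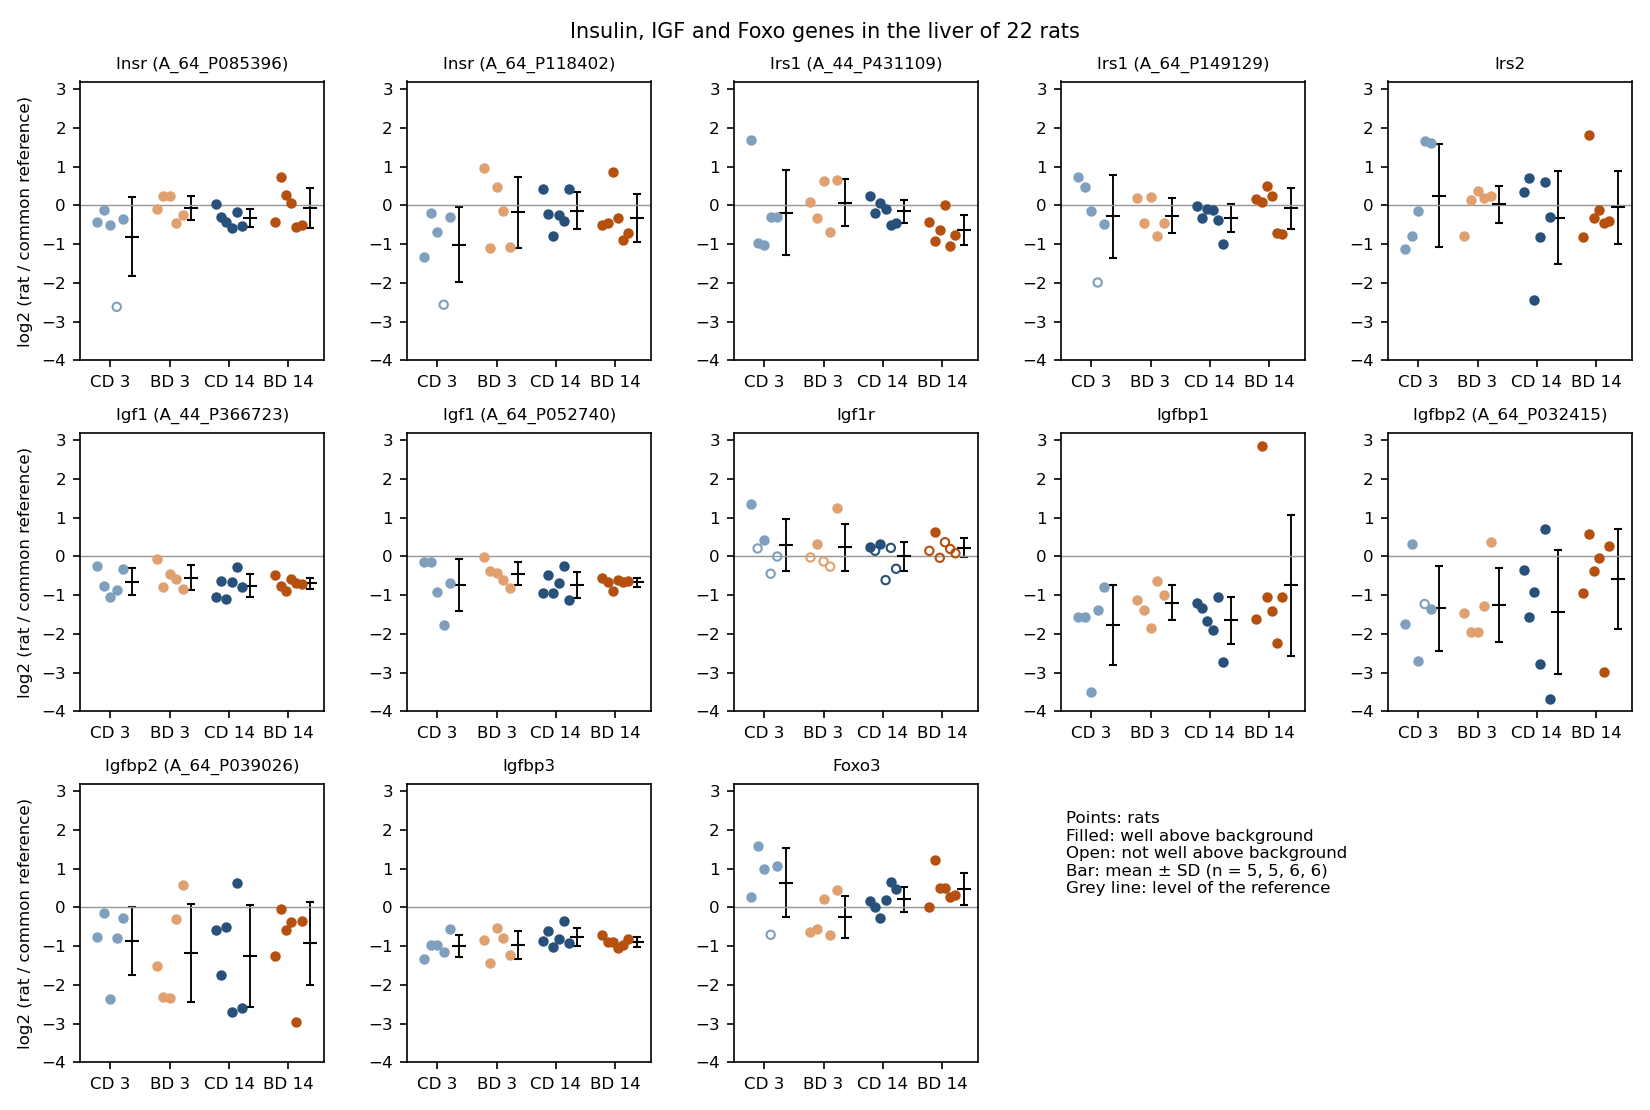
Log2 ratio of rat to common reference for each of the 13 probes (panels) in each rat (points), with group means and SD as bars; open points were not well above background in Cy5. The Igf1 and Igfbp3 points all sit below 0, and BD 14 replicate 2 sits at 2.84 for Igfbp1 above all other rats.

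The insulin receptor Insr was measured by 2 probes. With A_64_P085396 the CD 3 rats had log2 ratios of -0.42, -0.12, -0.50, -2.62 and -0.36, and the BD 3 rats -0.10, 0.25, 0.25, -0.45 and -0.24. The ratios of CD 14 ran from -0.57 to 0.03 with a median of -0.36, and those of BD 14 from -0.56 to 0.75 with a median of -0.19. The groups overlapped, and the low value belonged to CD 3 replicate 4, on which neither Insr probe was well above background. With A_64_P118402 the mean was -1.02 ± 0.97 (CD 3) and -0.17 ± 0.91 (BD 3) after 3 months (SD, n = 5), and -0.14 ± 0.47 (CD 14) and -0.33 ± 0.62 (BD 14) after 14 months (n = 6). The reference itself was well above background for this probe on 17 of 22 arrays. Without CD 3 replicate 4, the difference of BD 3 minus CD 3 dropped from 0.74 to 0.29 for the first Insr probe and from 0.85 to 0.46 for the second, and neither was called with or without that rat.

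Irs1 and Irs2 dock the PI3-kinase to the activated receptor, and Irs2 is transcribed in the fasted liver. For Irs1 (A_44_P431109) the ratios were 1.68, -0.98, -1.01, -0.29 and -0.31 in CD 3, and 0.10, -0.33, 0.64, -0.70 and 0.67 in BD 3. They ran from -0.49 to 0.25 in CD 14 with a median of -0.14, and from -1.04 to 0.01 in BD 14 with a median of -0.70. The value of 1.68 belonged to CD 3 replicate 1, an array with many non-uniform spots, and without it the difference of BD 3 minus CD 3 for Irs1 went from 0.26 to 0.72, with limma's unadjusted p at 0.019 and adjusted p at 0.325. In the same fit the Irs1 difference of BD 14 minus BD 3 was -0.70 (unadjusted p = 0.0124, adjusted p = 0.416 by limma) and the interaction of diet and time -1.20 (unadjusted p = 0.00447, adjusted p = 0.504 by limma). With slide as a block and all rats included, BD 3 minus CD 3 turned to -1.14 for this Irs1 probe (unadjusted p = 0.0253 by limma), so its direction depended on the setting. These Irs1 values were chosen after they were seen. The second Irs1 probe had means of -0.28 ± 1.07 (CD 3) and -0.26 ± 0.45 (BD 3) after 3 months (SD, n = 5), and of -0.33 ± 0.36 (CD 14) and -0.07 ± 0.53 (BD 14) after 14 months (n = 6). In BD 14 the 2 Irs1 probes thus stood at -0.63 and -0.07, and the cause of this disagreement was not tested.

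Irs2 had ratios of -1.14, -0.79, -0.14, 1.67 and 1.62 in CD 3, and of -0.80, 0.14, 0.38, 0.18 and 0.25 in BD 3. In CD 14 Irs2 ran from -2.44 to 0.70 with a median of 0.03, and in BD 14 from -0.80 to 1.83 with a median of -0.36. The groups overlapped, and their means lay between -0.31 and 0.25. The residual SD of Irs2 was 1.04, higher than that of 95.3% of the probes tested.

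Igf1, the growth factor through which growth hormone acts, was the steadiest of the genes with Igfbp3. The ratios of Igf1 (A_44_P366723) were -0.25, -0.77, -1.05, -0.87 and -0.33 in CD 3, and -0.06, -0.80, -0.44, -0.59 and -0.85 in BD 3. They ran from -1.09 to -0.28 in CD 14 with a median of -0.73, and from -0.89 to -0.48 in BD 14 with a median of -0.70. Every rat thus had a ratio below 0 with this probe, and the same held for the second probe, whose ratios spanned -1.77 to -0.02. A dye effect on these probes cannot be told apart from a lower level than in the younger reference rats. Of the 18735 tested probes with a value on every array, 1.75% were below the reference on all of them, which is the share against which these 22 of 22 may be read. Cy5 signals of the first Igf1 probe ran from 57708 to 137610 without a saturated spot. The 95% intervals of the 4 pairwise differences reached no further than -0.54 and 0.52 with the first Igf1 probe, and -0.72 and 0.81 with the second.

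Igfbp3, which carries most of the circulating Igf1, behaved alike. Its ratios were -1.33, -0.96, -0.96, -1.14 and -0.55 in CD 3, and -0.84, -1.43, -0.54, -0.79 and -1.22 in BD 3. They ran from -1.03 to -0.35 in CD 14 with a median of -0.84, and from -1.05 to -0.70 in BD 14 with a median of -0.90. The groups overlapped and all 22 rats were below the reference. The residual SD of Igfbp3 was 0.26, with 9.54% of the tested probes below it, that of the first Igf1 probe 0.28, with 12.6% below it, and that of the second 0.39, with 28.7% below it. In the rat liver Igfbp3 is known to be made largely outside the hepatocytes, and the Kupffer cell marker means named above were likewise below the reference in every rat, as were the stellate cell means. The mean of the 4 sinusoidal endothelium markers was not, with highest values of 0.09 in CD 3, 0.16 in BD 3 and 0.51 in CD 14, and -0.24 in BD 14. Their part in the Igfbp3 ratios was not tested.

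Igfbp1, the acute binding protein that insulin switches off, was below the reference in 21 of 22 rats. Its ratios were -1.57, -1.56, -3.51, -1.39 and -0.80 in CD 3, and -1.13, -1.38, -1.85, -0.64 and -1.004 in BD 3. In CD 14 they ran from -2.71 to -1.05 with a median of -1.50. In BD 14 they were -1.62, 2.84, -1.04, -1.41, -2.23 and -1.04, so that replicate 2 stood above the reference and the other 5 rats within the range of CD 14 or close to it. The Cy5 signal of Igfbp1 in this rat was 26672, against 243 to 1694 in the other 21. The mean of BD 14 was -0.75 ± 1.81 (SD, n = 6) with this rat, and -1.47 ± 0.49 (n = 5) without it.

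Igfbp2, a binding protein that is raised in the fasted liver and falls with growth hormone, varied widely with both probes. With A_64_P039026 the ratios were -0.76, -0.14, -2.36, -0.79 and -0.28 in CD 3, and -1.51, -2.31, -2.33, -0.30 and 0.57 in BD 3. They ran from -2.71 to 0.62 in CD 14 with a median of -1.17, and from -2.95 to -0.04 in BD 14 with a median of -0.48. With A_64_P032415 the range over all rats was -3.68 to 0.70. The residual SD was 1.16 and 1.28 for these Igfbp2 probes, higher than that of 97.3% and 98.4% of the tested probes, and 1.14 for Igfbp1, higher than that of 97.1%. The 2 Igfbp2 probes had a Pearson r of 0.90 over the rats, so this spread was not particular to 1 probe. Both probes share the array and its RNA.

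The receptor Igf1r, which adult hepatocytes are known to express at a very low level, was well above background on 2 arrays each of CD 3, BD 3 and CD 14 and on 1 of BD 14. It was therefore not tested, and its mean ratios of 0.31 ± 0.67 (SD, n = 5), 0.23 ± 0.61, 0.00 ± 0.38 (n = 6) and 0.23 ± 0.24 in the order CD 3, BD 3, CD 14 and BD 14 came largely from signals near background. Cy5 signals of Igf1r ran from 5.71 to 169 over the rats.

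**Figure D2:**
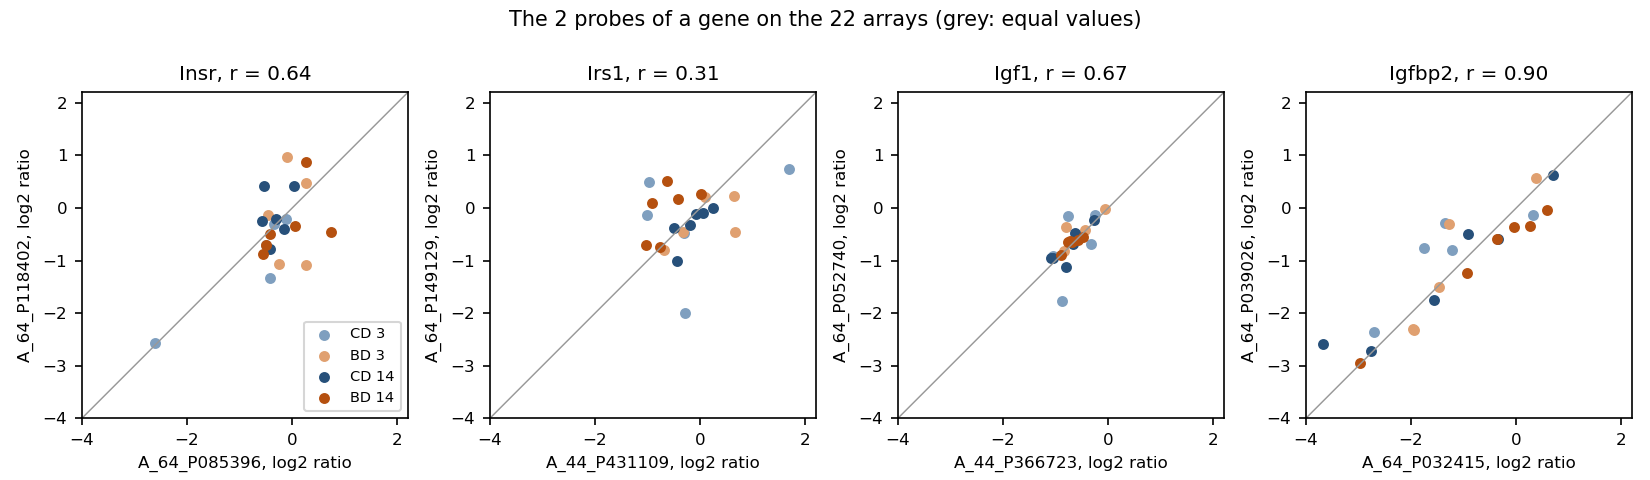
Log2 ratio of the second probe (y axis) against that of the first (x axis) of the 4 genes with 2 probes, each point a rat coloured by group, with a grey line of equal values. The Igf1 points lie closest to the line, with a root mean square difference of 0.28 between probes, those of Irs1 farthest at 0.72, and those of Igfbp2 have the highest r at 0.90.

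Over the 22 arrays the 2 probes of Igfbp2 had a Pearson r of 0.90, those of Igf1 0.67, those of Insr 0.64 and those of Irs1 0.31. Both probes of a gene share the array and its RNA, so these values describe the agreement of the measurement and carry no p. Among different genes, the highest r was that of Insr (A_64_P085396) with Irs1 (A_64_P149129) at 0.72, followed by Irs1 (A_64_P149129) with Igf1 (A_64_P052740) at 0.66. All 3 of these probes were at their lowest on CD 3 replicate 4. Igfbp1 and Igfbp2 had r of 0.62 and 0.56 with the 2 Igfbp2 probes, and 0.67 and 0.69 without BD 14 replicate 2.

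Foxo3 is a transcription factor that insulin signalling keeps out of the nucleus. Its log2 ratios were 0.26, 1.59, 0.98, -0.71 and 1.07 in CD 3, and -0.64, -0.56, 0.21, -0.70 and 0.44 in BD 3. They ran from -0.26 to 0.65 in CD 14 with a median of 0.19, and from 0.02 to 1.22 in BD 14 with a median of 0.41. Of the CD 3 rats 4 of 5 were above the reference and of the BD 3 rats 2 of 5, and 3 of the 5 CD 3 rats were above every BD 3 rat, while CD 3 replicate 4 was as low as the lowest of them. The means were 0.64 ± 0.89 (SD, n = 5), -0.25 ± 0.53, 0.21 ± 0.32 (n = 6) and 0.47 ± 0.41 in the order CD 3, BD 3, CD 14 and BD 14. The Foxo3 signal was dim: Cy5 signals lay between 14.6 and 97.0, and the reference was well above background on 14 of 22 arrays, and on 1 of 6 in BD 14.

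The comparison of BD 3 with CD 3 asks about the diet after 3 months. None of the 12 tested probes was called, where 0.0% of all 19425 tested probes were, and the lowest of limma's adjusted p-values was 0.573. At an unadjusted p under 0.05 Foxo3 alone stood out, 1 of 12 probes against 7.11% of all. The Foxo3 difference was -0.89 (SE 0.34, 95% interval -1.60 to -0.18), with limma's unadjusted p at 0.017 and adjusted p at 0.573. Leaving out CD 3 replicate 4, on which Foxo3 was not well above background, it was -1.23 (unadjusted p = 0.000476, adjusted p = 0.622 by limma). Leaving out CD 3 replicate 2 it was -0.65 (unadjusted p = 0.0669 by limma). With slide as a block it was -0.76 (unadjusted p = 0.173 by limma), and within the slide that holds 2 BD 3 rats and 1 CD 3 rat it was -0.86. With only the groups compared in the fit, limma's unadjusted p for Foxo3 was 0.0599. The other 11 differences lay between -0.31 and 0.85, with standard errors of 0.19 to 0.75. Of the 3 red cell markers measured none was called (lowest adjusted p = 0.585 by limma), while 2 had an unadjusted p under 0.05 with differences below 0, and the median difference of the 3 was -0.96. The mean ratio of these markers ran from -1.68 to 0.04 in CD 3 and from -2.40 to -0.47 in BD 3, and their part in the differences was not tested.

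The comparison of BD 14 with CD 14 asks about the diet after 14 months. None of the 12 probes was called, against 0.0% of all, and none had an unadjusted p under 0.05, against 4.59% of all. Their differences lay between -0.47 and 0.90 with standard errors of 0.17 to 0.69, and 9 of 12 were above 0. The largest was that of Igfbp1, which is given here after its values were seen: 0.90 (SE 0.61, 95% interval -0.37 to 2.17), limma's adjusted p 0.952. Without BD 14 replicate 2 this Igfbp1 difference was 0.18 and that of Irs2 went from 0.27 to -0.10.

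Over both times together, the diet difference was called for none of the 12 probes, against 0.00515% of all, and no probe had an unadjusted p under 0.05, against 7.2% of all. The diet differences over both times ran from -0.31 to 0.73. In the interaction of diet and time none of the 12 was called, against 0.0%, and 1 of 12 had an unadjusted p under 0.05, against 4.79% of all. This was Foxo3, for which the diet difference at 14 months exceeded that at 3 months by 1.16 (SE 0.47, 95% interval 0.19 to 2.13), with limma's unadjusted p at 0.021 and adjusted p at 0.992. With slide as a block it was 0.81 (unadjusted p = 0.26 by limma), and with Cy5 signals only 0.38. Leaving out CD 3 replicate 2 it was 0.92 (unadjusted p = 0.0513 by limma). Leaving out CD 3 replicate 4 it was 1.50 (unadjusted p = 0.0010, adjusted p = 0.502 by limma). Without that rat, the Foxo3 diet difference over both times was -0.48 (unadjusted p = 0.023, adjusted p = 0.928 by limma).

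**Figure D3:**
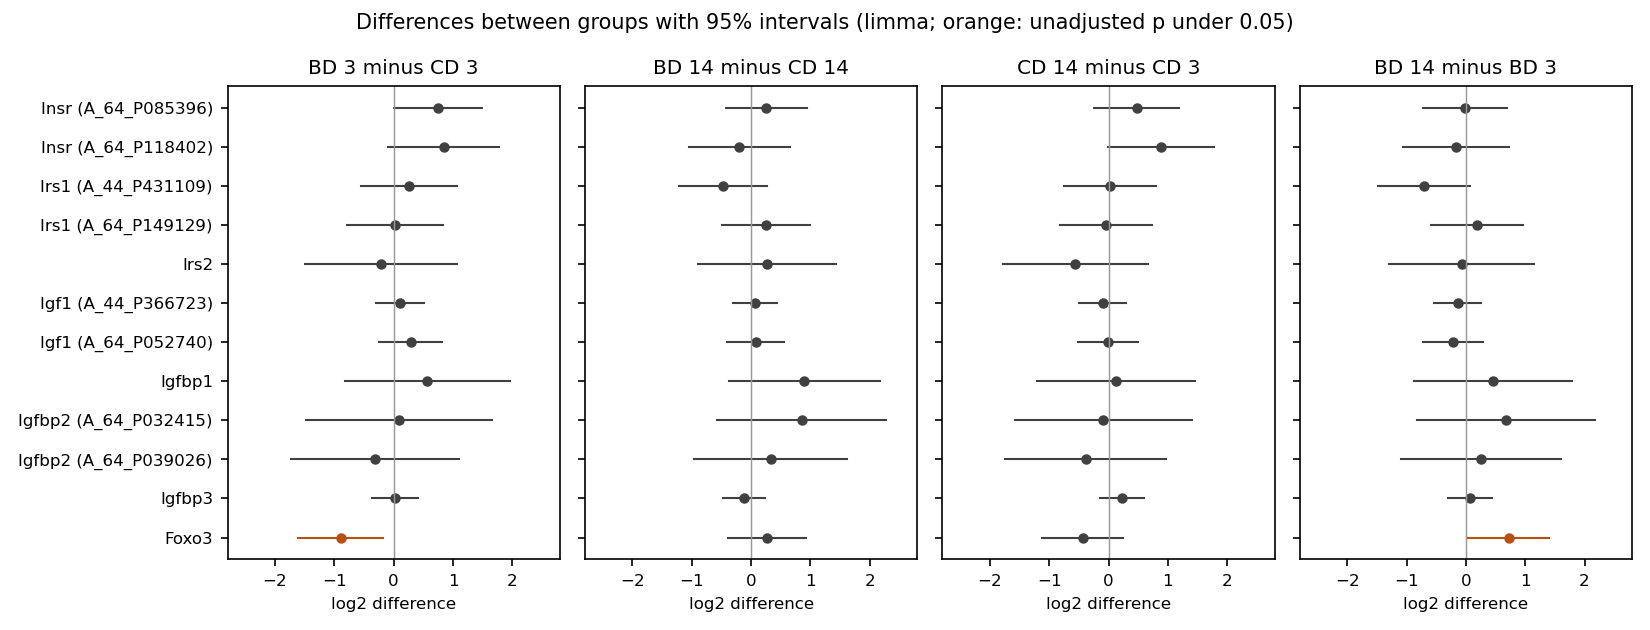
Differences in log2 ratio between groups (x axis) for the 12 tested probes (y axis) in 4 comparisons, with points for the estimates, lines for their 95% intervals from limma, and orange for an unadjusted p under 0.05. The orange probe is Foxo3, at -0.89 for BD 3 minus CD 3 and 0.72 for BD 14 minus BD 3, and no probe was called after adjustment.

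Time was examined on each diet. In CD 14 against CD 3 none of the 12 probes was called, against 0.0% of all, and none had an unadjusted p under 0.05, against 10.1% of all. Differences on the control diet lay between -0.56 and 0.88, and 7 of 12 were below 0. Without CD 3 replicate 4, that of Foxo3 was -0.77 (unadjusted p = 0.0132, adjusted p = 0.306 by limma). Of the 6 Kupffer cell markers none was called (lowest adjusted p = 0.250 by limma), while 4 had an unadjusted p under 0.05 with differences above 0, and the median difference of the 6 was 1.17. Their mean ratio ran from -2.95 to -0.77 in CD 3 and from -1.37 to -0.19 in CD 14, and their part was not tested. In BD 14 against BD 3 none was called, against 0.0%, and 1 of 12 had an unadjusted p under 0.05, against 7.43% of all. This again was Foxo3, with a difference of 0.72 (SE 0.33, 95% interval 0.04 to 1.41), limma's unadjusted p at 0.039 and adjusted p at 0.641. The comparison shares the BD 3 rats with that of diet at 3 months, and no slide held rats of both groups. The Foxo3 difference was 0.08 with slide as a block and 0.00 from the Cy5 channel alone.

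Time over both diets was called for none of the 12 probes, against 0.221% of all, with no unadjusted p under 0.05, against 13.6% of all. The differences ran from -0.34 to 0.36. The test over the 4 groups together called none, against 0.0257% of all, and gave no unadjusted p under 0.05, against 10.5% of all, with an adjusted p of 0.530 for the lowest.

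**Figure D4:**
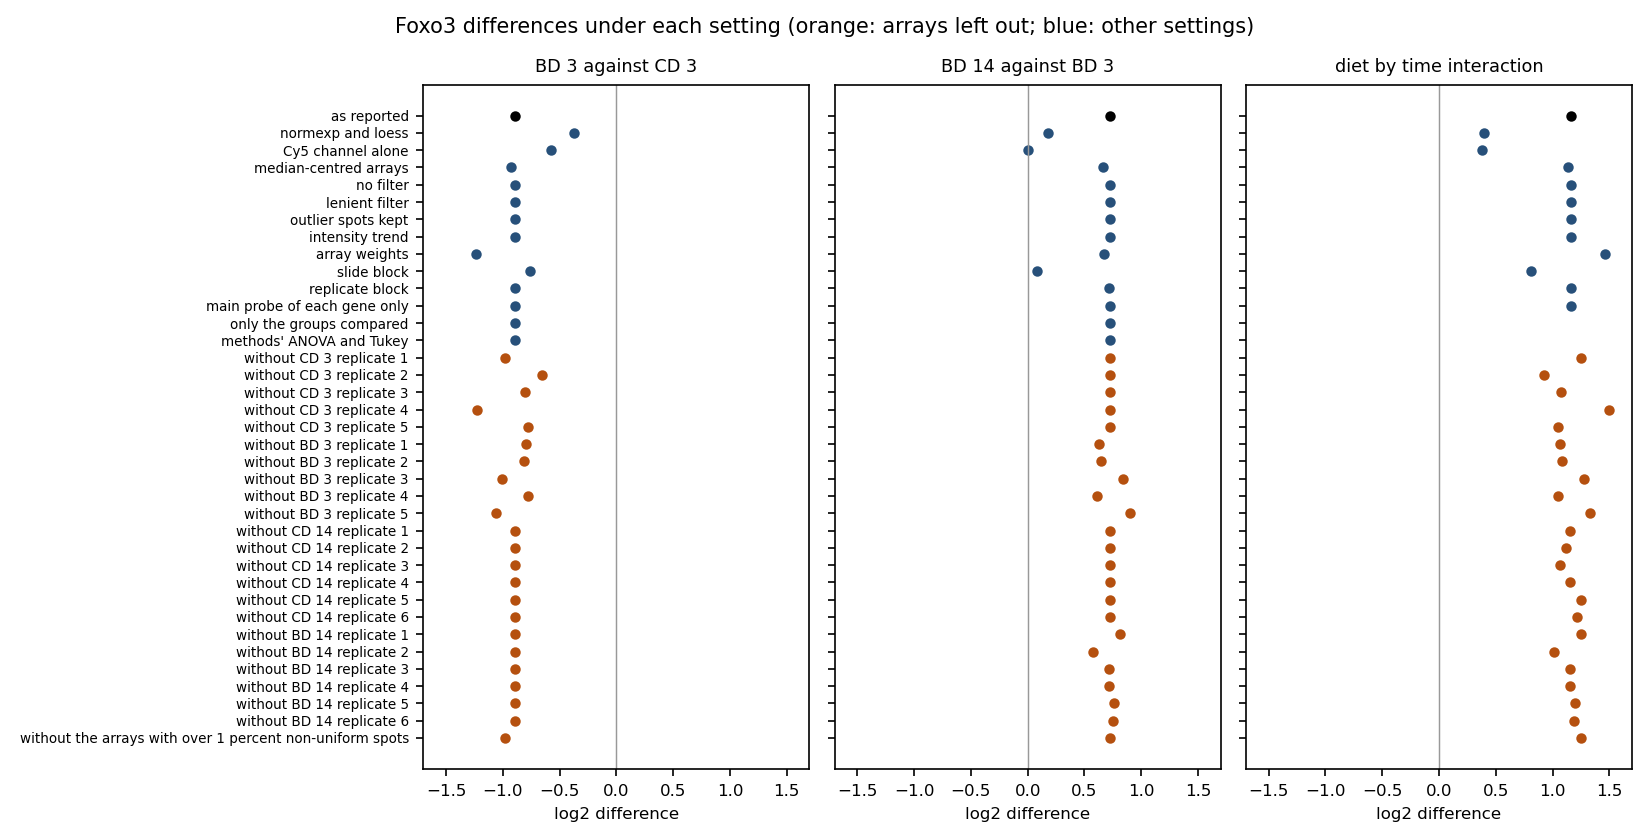
Foxo3 difference in log2 ratio (x axis) in 3 comparisons (panels) under each setting of the processing (y axis), black as reported, orange with arrays left out and blue for other settings. BD 3 minus CD 3 stays below 0 and ranges from -1.24 to -0.38 under the blue settings, whereas BD 14 minus BD 3 ranges from 0.00 to 0.72.

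The other genes of the pathway were taken from lists of 78 genes, of which 75 were on the array and 63 tested. None was called in any comparison. Before adjustment, p lay under 0.05 for 6 of the 63 in BD 3 against CD 3 (9.52%, against 7.11% of all tested probes) and for 4 in BD 14 against CD 14 (6.35%, against 4.59%). The count was 5 in CD 14 against CD 3 (7.94%, against 10.1%) and 8 in BD 14 against BD 3 (12.7%, against 7.43%). For the diet over both times it was 10 (15.9%, against 7.2%), for time over both diets 8 (12.7%, against 13.6%) and for the interaction 3 (4.76%, against 4.79%). The median difference over the 63 genes in the 4 pairwise comparisons was 0.06, 0.01, 0.08 and 0.08 in this order, and over all tested probes 0.03, 0.05, 0.03 and 0.07.

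Among the ligands and their receptors, Igf2, the fetal growth factor, had a mean of -0.31 ± 1.23 (SD, n = 5) in CD 3 and -1.30 ± 0.37 in BD 3, and limma's adjusted p for the difference was 0.585. Igf2r, which clears Igf2 from the cell surface, stood at 0.32 ± 0.26 in CD 3 and -0.14 ± 0.23 in BD 3 (n = 5 each, adjusted p = 0.525 by limma). These were the 2 of 4 tested genes of their list below 0.05 before adjustment, where 7.11% of all tested probes were. Of the other binding proteins Igfbp4 was at -0.34 ± 0.08 in BD 3 (n = 5) and -0.92 ± 0.24 in BD 14 (n = 6), with limma's adjusted p at 0.614.

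Downstream of the receptor, Enpp1, a membrane protein that can inhibit it, had diet differences of -0.41 at 3 and -0.39 at 14 months, and limma's adjusted p was 0.589 for the diet over both times. Its means were -0.03 ± 0.24 in CD 3 and -0.44 ± 0.45 in BD 3 (SD, n = 5), and -0.35 ± 0.24 in CD 14 and -0.74 ± 0.12 in BD 14 (n = 6). The adaptor Gab1 was at -0.38 ± 0.37 in CD 14 and 0.24 ± 0.47 in BD 14 (n = 6, adjusted p = 0.952 by limma). Akt2, the main Akt kinase of insulin action in liver, was at -0.01 ± 0.86 in CD 14 and 0.94 ± 0.80 in BD 14 (n = 6), with limma's adjusted p also at 0.952. BD 14 replicate 2 had the highest value of all rats for both Gab1 (0.81) and Akt2 (2.06). Gab1 was well above background in Cy5 on only 13 arrays. In the mTOR branch Rptor, a subunit of the mTOR complex, was at 0.12 ± 0.08 in BD 3 (n = 5) and -0.24 ± 0.10 in BD 14 (n = 6, adjusted p = 0.607 by limma).

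Of 13 tested Foxo target genes, Cdkn1b, a cell cycle inhibitor, was at -0.88 ± 1.05 (SD) in CD 3 and 0.30 ± 0.55 in BD 3 (n = 5, adjusted p = 0.435 by limma). In CD 14 it was at 0.19 ± 0.36 and in BD 14 at 0.17 ± 0.32 (n = 6). Limma's adjusted p for Cdkn1b in CD 14 against CD 3 was 0.302. Pck1, an enzyme of gluconeogenesis, was at -1.30 ± 1.60 (CD 3) and -0.26 ± 0.67 (BD 3) after 3 months, and at -1.42 ± 0.85 (CD 14) and -0.49 ± 0.55 (BD 14) after 14 months, and limma's adjusted p was 0.627 for the diet over both times. Of 7 tested genes that insulin induces in liver, the pyruvate kinase gene Pklr was at 1.23 ± 0.48 in CD 3 and 0.09 ± 0.48 in BD 3 (n = 5, adjusted p = 0.399 by limma). The lipogenic genes Fasn and Elovl6 had differences of 1.39 and 1.99 for 14 against 3 months over both diets, with limma's adjusted p at 0.214 and 0.222, and neither was called.

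BD 14 replicate 2 was the rat with the highest Igfbp1 ratio, and it is described further after its values were seen. It also had the highest of 22 values for Irs2 (1.83, against -0.80 to -0.12 in the other 5 BD 14 rats) and for Insr with A_64_P085396 (0.75, against -0.56 to 0.27). The other Insr probe was at -0.45 in this rat, 13th from the highest and inside the range of the other BD 14 rats (-0.88 to 0.87). Its Foxo3 ratio of 1.22 was the second highest. Igf1 and Igfbp3 were not displaced in this rat, at -0.77 and -0.89, inside the ranges of the other BD 14 rats.

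Over the 63 tested pathway genes this rat held the highest value for 13 (20.6%) and the lowest for 4 (6.35%), while over all tested probes it held the highest for 12.2% and the lowest for 7.86%. The highest values were 5 of 10 among the adaptors and receptor regulators. Socs3, an inhibitor of cytokine and insulin signalling, stood at 3.21, against -0.47 to -0.11 in the other 5 BD 14 rats, and the receptor phosphatase Ptpn1 at 1.59, against -0.58 to 0.05. Among the Foxo targets, Gadd45a, a stress response gene, was at 3.37 (others -0.31 to 0.76) and Fbxo32, a ubiquitin ligase subunit, at 2.70 (others -0.71 to 0.86). The same list held the lowest values of the 22 rats for G6pc, glucose-6-phosphatase, at -3.70 (others -1.25 to -0.01), and for the transcription factor Klf15, at -2.52 (others 0.24 to 1.23). The Foxo target list thus did not move one way in this rat. Of the insulin-induced genes, the lipogenic factor Srebf1 was the lowest of 22 at -0.22, against 1.26 to 2.78, while Fasn was at 4.00, against 1.57 to 3.64.

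**Figure D5:**
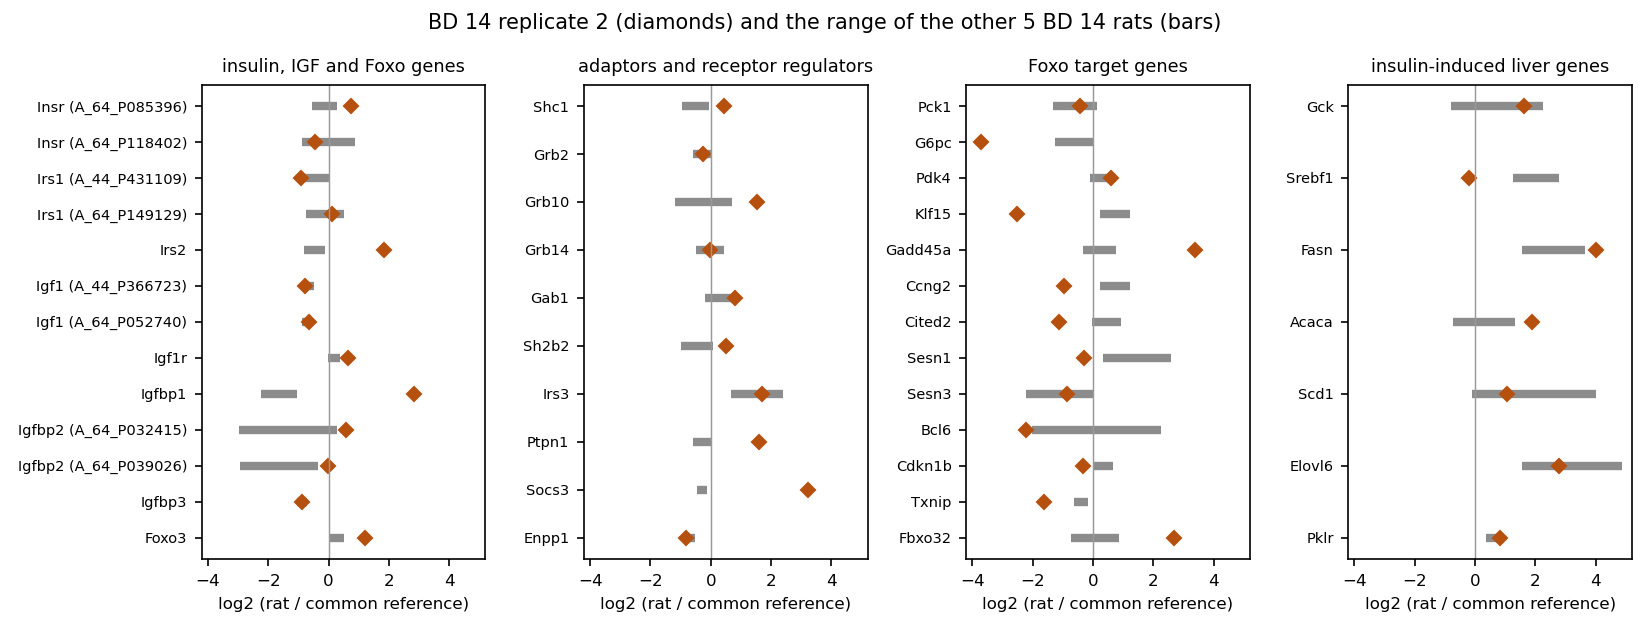
Log2 ratio (x axis) of BD 14 replicate 2 (diamonds) beside the range of the other 5 BD 14 rats (grey bars) for the insulin, IGF and Foxo genes and for 3 lists of the pathway. Igfbp1 at 2.84, Socs3 at 3.21 and Gadd45a at 3.37 lie above their bars, and G6pc at -3.70 and Klf15 at -2.52 below them.

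On this array 74.3% of spots were well above background in Cy5 and less than 1% were non-uniform, within the range of the other arrays. The mean of the bile duct markers was the lowest of the 22 at -0.996, those of the sinusoidal endothelium (-0.89) and of the stellate cells (-1.57) were 19th from the highest, and that of the Kupffer cells (-1.51) was 16th. The mean of the leukocyte markers (0.40) was 4th and the highest of BD 14, and that of the hepatocyte markers (0.30) was 5th. None of the 5 bile duct markers and 1 of the 5 leukocyte markers were well above background on all 22 arrays. The part of these cell types in the values of this rat was not tested.

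By likeness of pattern, measured as Pearson's r of the log2 ratio over the 22 arrays among tested genes with a RefSeq name, the closest to Igfbp1 were Gadd45b (0.88) and Birc3 (0.86). Those closest to Irs2 were Ccnl1 and Cish (both 0.78), and those closest to Insr were Rab3ip (0.90) and Fbxo34 (0.89). Irs1 was closest to Stk4 (0.86) and Erg (0.84), and Foxo3 to Sh3bgrl1 (0.76) and Stim2 (0.73). Igfbp3 was closest to Celf2 (0.77) and Fermt3 (0.72), Igfbp2 to Ptgdr (0.64) and Ccl17 (0.63), and Igf1 to Prr5l (0.62) and Sqor (0.61). Single extreme arrays weigh on these values. Without CD 3 replicates 1 and 4 and BD 14 replicate 2, left out after the values were seen, r over 19 arrays was 0.67 and 0.47 for the Insr pairs, 0.58 and 0.51 for those of Igfbp1, 0.61 and 0.72 for those of Irs2, and 0.71 and 0.77 for those of Irs1. For the pairs of Igf1, Igfbp2, Igfbp3 and Foxo3 it lay between 0.54 and 0.76. The r over 22 arrays are the highest over all such genes and are given as descriptions, with no p. The genes share arrays and dye normalization with the gene they are set beside.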

How the data were processed

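Scanner output of 22 arrays was used. The authors made the intensity values with Agilent Feature Extraction (10.7.3.1 per the labels, 10.10.1.1 per the file headers), which subtracted background and normalized the dyes by Lowess. The deposited log10 ratios are processed Cy5 over Cy3. They were converted to log2 and averaged per probe without control or non-uniform spots, with no further scaling. The authors' deposited log2 table of significant entries was not used, as it holds none of these probes. Testing was limited to the 19425 probes that had a share of 0.5 or more of their spots well above the Cy5 background throughout 1 group or more.

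limma 3.58.1 in R 4.3.3 fitted the 4 group means with eBayes, with Benjamini-Hochberg adjustment across those 19425 probes and a threshold of 0.05. Python 3.11.15 with pandas 2.3.3 and numpy 2.4.6 made the summaries and matplotlib 3.10.9 the figures. The steps were tested on simulated data. Each array is a separate rat, so p-values measure the spread between these rats, and the number of arrays limits the precision. That spread includes slide differences within CD 3, BD 3 and CD 14, but not within BD 14, whose rats all lay on 1 slide. Slide differences also enter the differences between groups, and BD 14 and BD 3 shared no slide. The genes and lists were chosen with earlier results of these data known. All 10 genes were to be named, with a difference and its p only at an unadjusted p under 0.05, with the 3 genes of each pathway list that had the smallest p over the 4 groups, and the 2 most alike genes of each main probe, that of the highest mean Cy5 signal. Some differences of Insr, Irs1, Irs2, Igfbp1 and Foxo3 were given outside this rule, after their values were seen. Genes named beside BD 14 replicate 2 were chosen after their values were seen. Probe positions follow rn4 and promoter windows RefSeq's GRCr8, and no coordinates were converted. Alternatives were normexp with an offset of 50 and loess, Cy5 alone, median-centring, other filters, an intensity trend, outlier spots kept, weighted arrays, slide or rat number as a block, the main probe only, the methods' ANOVA with Tukey's HSD, only the groups compared and each array left out. The data without the 2 arrays of over 1% non-uniform spots were added after seeing the data.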

Additional observations from a re-analysis of the deposited data

Results flagged for a closer look

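In 10 of 52 groups of values (13 probes in 4 groups) the highest or lowest rat stood apart from the others by Dixon's criterion at 95%, which chance alone meets in about 1 of 20 groups. CD 3 replicate 4 was the lowest for Insr (A_64_P085396) at -2.62, with the nearest rat at -0.50, and the probe was not well above background there. CD 3 replicate 1 was the highest for Irs1 (A_44_P431109) at 1.68, with the nearest at -0.29, on an array with many non-uniform spots. CD 3 replicate 3 was the lowest for Igfbp1 at -3.51, with the nearest at -1.57.

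In BD 3, replicate 1 was the lowest for Irs2 at -0.80 (nearest 0.14), and replicate 5 the highest for Igfbp2 (A_64_P032415) at 0.38 (nearest -1.28). In CD 14, replicate 6 was the lowest for Irs1 (A_64_P149129) at -1.01 (nearest -0.38).

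In BD 14, replicate 2 was the highest for Igfbp1 at 2.84 (nearest -1.04) and for Irs2 at 1.83 (nearest -0.12). Replicate 3 was the highest for Insr (A_64_P118402) at 0.87 (nearest -0.33) and the lowest for Igf1 (A_64_P052740) at -0.89 (nearest -0.65). The cause of these values was not tested.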

How the results depend on the processing

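The number of probes called stayed at 0 in each of the 8 comparisons under the 35 to 37 other settings run for it, arrays left out included, and the lowest adjusted p for any of these genes under any setting was 0.158, for Foxo3 in BD 14 against BD 3 with array weights. The Foxo3 difference of BD 3 minus CD 3 ranged from -1.24 to -0.38 over 14 other settings and from -1.23 to -0.65 over the arrays left out. Its unadjusted p was under 0.05 in 32 of these 36. It was 0.173 with slide as a block, 0.0599 with only the groups compared, 0.0918 with the methods' ANOVA and Tukey's test, and 0.0669 without CD 3 replicate 2. That of Insr (A_64_P085396) was under 0.05 in 11 settings, and not without CD 3 replicate 4. For BD 14 minus BD 3 the Foxo3 difference ranged from 0.00 to 0.72 and from 0.58 to 0.90, and for the interaction from 0.38 to 1.46 and from 0.92 to 1.50. The Igfbp1 difference of BD 14 minus CD 14 ranged from 0.33 to 0.99 and from 0.18 to 1.20. None of these differences of Foxo3 and Igfbp1 changed direction, whereas Irs1 (A_44_P431109) in BD 3 minus CD 3 went from 0.26 to -1.14 with slide as a block. Igf1 (A_44_P366723, time over both diets, slide as a block) and Igfbp2 (A_64_P039026, interaction, Cy5 alone) were each under 0.05 in 1 setting. Over all probes, calls for BD 3 against CD 3 went from 0 to 261 with Cy5 alone and 93 without CD 3 replicate 5, those for CD 14 against CD 3 from 0 to 205 without CD 3 replicate 5, those for BD 14 against BD 3 from 0 to 99 with array weights, and those over the 4 groups from 5 to at most 187. The strict filter kept 7 of the 12 probes and dropped Foxo3. The authors' deposited table was not run, as it holds none of these probes, and scan day was the same as slide.

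With the rat number as a replicate block 0 probes were called, and the Foxo3 differences were -0.89, 0.71 and 1.16. The numbers did not pair the rats: deviations of the 31 same-numbered pairs had a median correlation of -0.02, and 5 of 22 arrays correlated best with their own number. Dim signal limits what can be seen: Foxo3, both Insr probes, 1 Irs1 and 1 Igfbp2 probe were not well above background on CD 3 replicate 4, and Igf1r on 15 arrays.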
